A study of Homo sapiens with 18 samples.

Results

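UGT2B enzymes are UDP-glucuronosyltransferases of the endoplasmic reticulum, which join glucuronic acid from UDP-glucuronate to steroids, bile acids and drugs so that the product can be exported. In the prostate, UGT2B15 and UGT2B17 glucuronidate testosterone, dihydrotestosterone and their metabolites, which ends the activity of these androgens inside the cell, and in LNCaP cells androgens are known to repress both genes. UGT2B28 also acts on androgens, UGT2B7 on morphine and steroids, UGT2B4 on bile acids, UGT2B10 on the nitrogen of nicotine and other amines, and UGT2B11 has been linked to fatty acid derivatives.

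The 7 protein-coding members UGT2B4, UGT2B7, UGT2B10, UGT2B11, UGT2B15, UGT2B17 and UGT2B28 were taken by symbol from a table of 63241 genes. The table names 12 genes whose symbol starts with UGT2B, and the other 5 are pseudogenes with at most 3 counts in any library. Poly(A) RNA was sequenced in 18 libraries from a pair of prostate cancer lines, with 3 libraries in each of 6 groups. LNCaP, first grown from a lymph node metastasis, depends on androgens, while PC-3, first grown from a metastasis to bone, does not. LNCaP cells had been given genistein or baicalein, each at 10 or at 20 µM, for 24 h, or were untreated, and PC-3 cells were untreated only. The sample labels call the controls untreated, while the treatment protocol describes DMSO vehicle alone. All groups are labelled wild type and all grew in RPMI-1640 with 10% fetal bovine serum, so the cells of every group had the androgens of that serum. Whether the replicates were separate cultures is not stated in the labels, so every p-value reflects the spread among these libraries alone, and that spread may be technical. Baicalein belongs to the flavones and genistein to the isoflavones. The molecules are isomers that differ in the core carbon that carries the phenyl ring and in the positions of their hydroxyl groups.

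The libraries held 10013567 to 18445711 counts. Per pair of replicate libraries, the chi-square statistic over genes was 12 to 97.6 per degree of freedom, so no pair differed by as little as sampling noise. Luminal prostate markers (KLK3, KLK2, FOLH1, TMPRSS2, ACP3 and HOXB13) summed to 351 to 376 CPM (counts scaled to library size) in PC-3, against 3020 to 3390 CPM in untreated LNCaP. The PC-3 markers CD44, VIM, AXL, CAV1 and ANXA1 summed to 2910 to 3190 CPM in PC-3, against 7.32 to 8.33 CPM in untreated LNCaP, so the labels of both lines matched their markers. Mitochondrially encoded genes held 12.5 ± 1.97% of the counts with baicalein at 20 µM, against 5.09 ± 0.381% in untreated LNCaP (SD, n = 3 each), and 4.55% to 6.05% on average in the other 4 groups.

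All 7 genes lie in a single cluster of 988842 bases on chromosome 4, from 68537173 to 69526014 on GRCh38, in the order UGT2B17, UGT2B15, UGT2B10, UGT2B7, UGT2B11, UGT2B28 and UGT2B4. UGT2B17 (ENSG00000197888) spans chr4:68537173-68576413 and UGT2B15 (ENSG00000196620) chr4:68646597-68670652, both on the minus strand. UGT2B11 (ENSG00000213759, chr4:69199951-69214748) and UGT2B4 (ENSG00000156096, chr4:69480165-69526014) are also on the minus strand. UGT2B10 (ENSG00000109181, chr4:68815994-68832023), UGT2B7 (ENSG00000171234, chr4:69051363-69112987) and UGT2B28 (ENSG00000135226, chr4:69280475-69295050) are on the plus strand.

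The members are close copies of one another, which bears on every count. In the GENCODE 29 transcripts, the coding sequences of UGT2B15 and UGT2B17 were 96.5% identical, with 55 of 1590 bases differing and a longest identical run of 199 bases. Of all windows of 50 bases in the UGT2B17 transcript, 27.5% also occurred in that of UGT2B15. A read that falls in such a window cannot tell the 2 genes apart, and how multimapping reads were counted is not given in the sources used here. The stretch below shows the densest differences between them, 9 in 60 bases of exon 1 (coding bases 242 to 301), and is printed because reads over it do separate the pair. It lies at chr4:68670318-68670377 for UGT2B15 and chr4:68568184-68568243 for UGT2B17 on GRCh38, minus strand, and capitals mark the bases that differ.
UGT2B15: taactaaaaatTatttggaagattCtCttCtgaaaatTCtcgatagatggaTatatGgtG
UGT2B17: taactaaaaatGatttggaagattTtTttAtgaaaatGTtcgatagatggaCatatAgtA

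The other 5 members formed a second group of copies. UGT2B11 and UGT2B28 were 97.0% identical and UGT2B10 and UGT2B11 94.8%, while UGT2B15 was 84.0% to 85.0% identical to these 5 and shared no window of 50 bases with any of them. UGT2B17 shared at most 0.1% of its windows with any of the 5. The summed counts of UGT2B15 and UGT2B17 are therefore nearly separable by sequence from those of the other members, and the split within the pair is less certain. Sums over the pair are given for that reason.

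**Figure D1:**
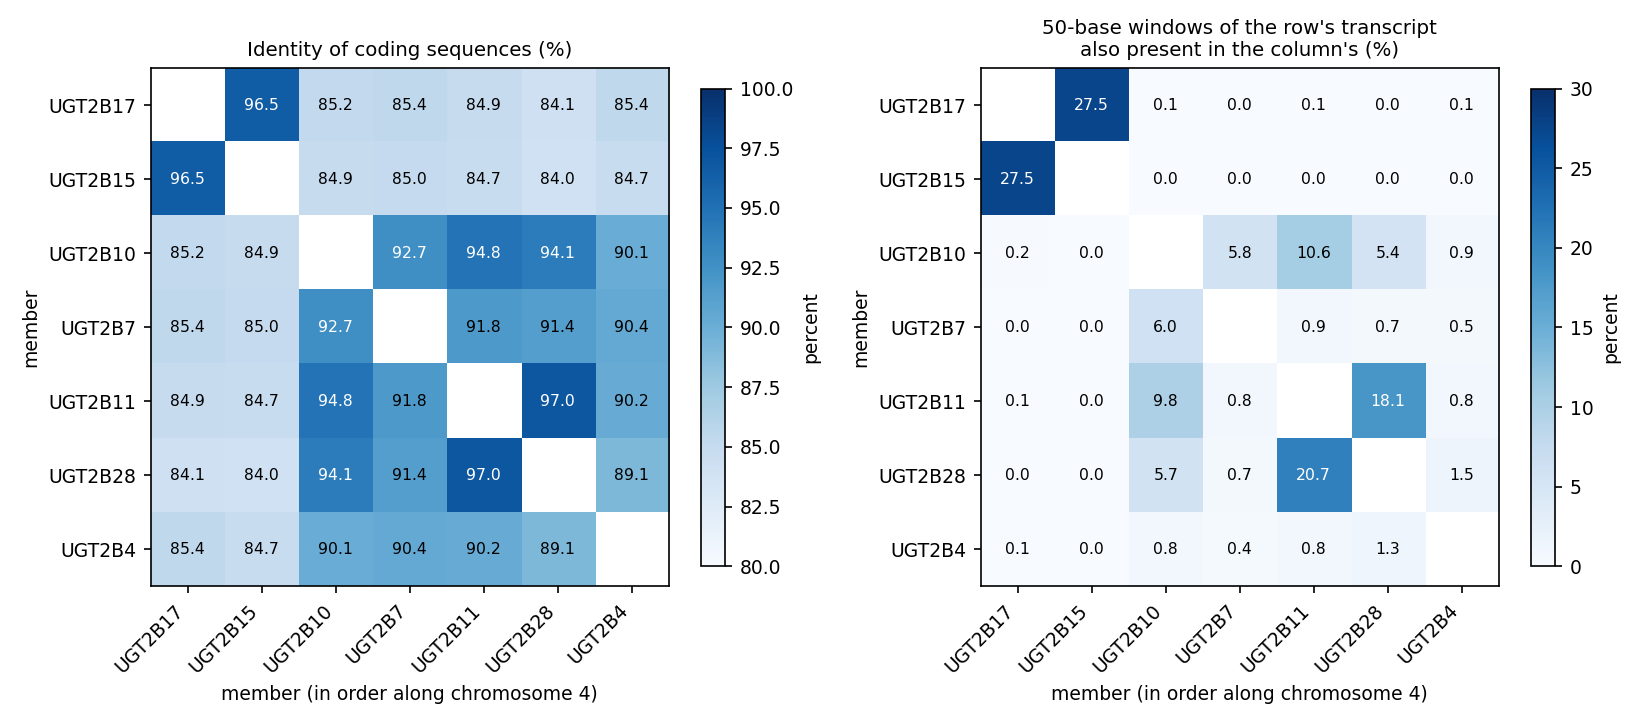
Percent identity of the coding sequences of the 7 members (left) and percent of 50-base windows of each row's transcript that also occur in the column's transcript (right), in the order of the genes along chromosome 4. UGT2B15 and UGT2B17 form a block at 96.5% identity and 27.5% shared windows, and UGT2B11 and UGT2B28 a block at 97.0%.

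Promoter sequence was matched by symbol in RefSeq (GRCh38.p14) for 4 of the 7 members, UGT2B15, UGT2B10, UGT2B11 and UGT2B7; UGT2B17, UGT2B28 and UGT2B4 had no entry. The 250 bases upstream of the start are shown for the 3 that fell together with baicalein at 20 µM (described further on). They lie at chr4:68670653-68670902 (minus strand) for UGT2B15, chr4:68815744-68815993 (plus strand) for UGT2B10 and chr4:69214749-69214998 (minus strand) for UGT2B11. Capitals mark the longest run that all 3 share, 18 bases, which no other of the 35116 promoters in that table holds. The run was picked because these copies share it, and its part in the fall was not tested.
UGT2B15: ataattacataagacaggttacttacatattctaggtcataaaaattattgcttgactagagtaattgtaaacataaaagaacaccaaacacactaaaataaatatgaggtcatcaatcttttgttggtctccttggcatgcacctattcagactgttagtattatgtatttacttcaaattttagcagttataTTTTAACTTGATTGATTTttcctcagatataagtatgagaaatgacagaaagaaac
UGT2B10: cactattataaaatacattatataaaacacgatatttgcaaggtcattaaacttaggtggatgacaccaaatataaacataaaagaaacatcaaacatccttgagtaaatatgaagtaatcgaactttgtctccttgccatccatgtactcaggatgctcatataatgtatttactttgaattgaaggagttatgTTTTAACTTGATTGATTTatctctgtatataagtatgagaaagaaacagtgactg
UGT2B11: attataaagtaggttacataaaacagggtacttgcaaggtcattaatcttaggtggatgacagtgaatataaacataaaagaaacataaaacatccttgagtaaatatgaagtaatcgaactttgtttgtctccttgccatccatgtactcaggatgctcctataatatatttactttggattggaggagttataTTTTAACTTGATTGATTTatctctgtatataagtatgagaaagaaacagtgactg

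The shared run starts 56 bases upstream of the start in UGT2B15 and 55 bases upstream in UGT2B10 and UGT2B11. The promoters of UGT2B10 and UGT2B11 were 90.2% identical over the 250 bases, and that of UGT2B15 was 70.0% identical to UGT2B11. These promoters were rich in A and T, at 67.2% to 71.6% over the 4 members, against a median of 42% over all promoters. Both strands were searched for 4 motifs, and no match overlapped another. The forkhead core TGTTTA, the letters bound by FOXA1 and related factors, occurred in all 4 and in 11% of all promoters, or 28.4% of the 4691 promoters with at least 60% A and T. The nuclear receptor hexamer AGGTCA occurred in UGT2B15, UGT2B10 and UGT2B11, with 2 copies in UGT2B15, and in 12.1% of all promoters, or 12.2% of those rich in A and T. The steroid receptor hexamer AGAACA occurred in UGT2B15, 172 bases upstream, and in 12.4% of all promoters, or 24.0% of those rich in A and T. The aryl hydrocarbon receptor core GCGTG was not among the letters of these 4 windows and occurred in 32.2% of all promoters, or 4.9% of those rich in A and T.

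In untreated LNCaP, UGT2B17 was the most abundant member and UGT2B15 the next, with the other 5 far below. Per kilobase of transcript, which allows genes to be compared, UGT2B17 averaged 65.8 CPM per kb, UGT2B15 28.3 and UGT2B11 1.96. The remaining members averaged 0.894 CPM per kb for UGT2B10, 0.426 for UGT2B28, 0.236 for UGT2B4 and 0.057 for UGT2B7. Among neighbours in this order, the libraries of UGT2B28 and UGT2B4 overlapped and those of the other neighbours did not. UGT2B15 and UGT2B17 together held 95.8% to 98.7% of the members' counts across the 15 LNCaP libraries. Hepatocyte markers (ALB, APOA2 and FGB), a check because UGT2B4 and UGT2B7 are liver enzymes, summed to at most 0.611 CPM in any LNCaP library, and APOA2 and FGB were at 0 on average in untreated and in baicalein 20 µM libraries.

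**Figure D2:**
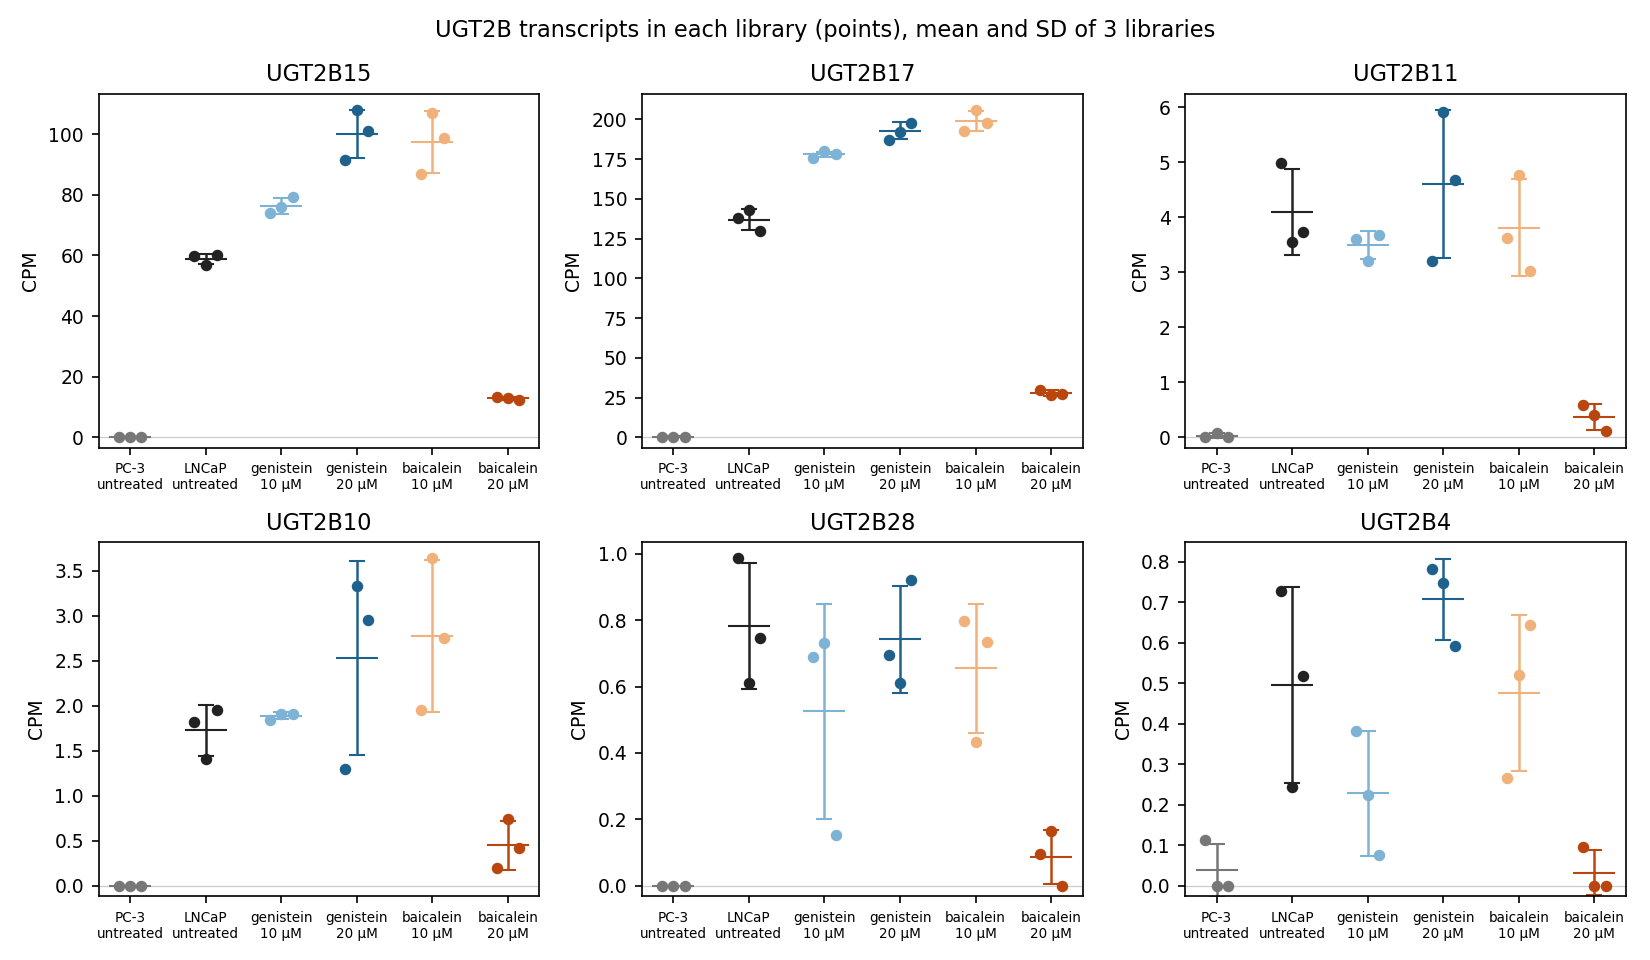
CPM of 6 members in each library (points), with the mean (horizontal line) and SD (whiskers) of 3 libraries, for PC-3 and for LNCaP untreated and after 24 h of each drug and dose; UGT2B7, with at most 6 counts in a library, is not drawn. UGT2B15 and UGT2B17 were above untreated LNCaP with genistein at both doses and with baicalein at 10 µM, and all 6 members were near the bottom of their axis with baicalein at 20 µM and in PC-3. The PC-3 values were scaled with the untreated LNCaP libraries alone.

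Untreated PC-3 against untreated LNCaP showed the family almost absent from PC-3. UGT2B17 had 4, 0 and 3 counts in the PC-3 libraries, against 133, 140 and 126 CPM in LNCaP, where the 3 libraries held 7243 counts. UGT2B15 had 1, 0 and 1 counts in PC-3, against 57.7, 55.4 and 58.4 CPM in LNCaP. Every PC-3 library was far below every LNCaP library for both genes. Both genes passed the filter on low counts through LNCaP alone. Their lack of overlap is therefore not read against the 40.0% of all genes tested that were lower in PC-3 without overlap. By pooled counts UGT2B17 was 592-fold lower in PC-3 (95% counting interval 287 to 1470) and UGT2B15 894-fold lower (247 to 7380). Such intervals cover counting error only, since reads were not collapsed to molecules.

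Calls here and below rest on an adjusted p under 0.05 by edgeR's quasi-likelihood test with Benjamini-Hochberg adjustment. The 4 members tested in this comparison passed the filter on low counts through LNCaP alone, so a lower level in PC-3 was fixed by the filter, and their number is not read against the 37.9% of all genes called lower. The edgeR adjusted p was 4.85e-06 for UGT2B17, 8.19e-07 for UGT2B15, 3.32e-05 for UGT2B11 and 0.000369 for UGT2B10. UGT2B11 had 1 count over the PC-3 libraries and 219 over the LNCaP libraries, a ratio of 125 (22.3 to 4980). UGT2B10 had 0 against 92 counts and was at least 17.6-fold lower in PC-3, against a floor of 3 counts over the group, and UGT2B28, not tested, had 0 against 42 counts and was at least 8.02-fold lower. In bulk RNA a smaller share of expressing cells and less RNA per cell cannot be told apart.

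With genistein at 10 µM the androgen pair was modestly higher, without passing the test. UGT2B15 had 74.1, 76.0 and 79.2 CPM with genistein, against 59.7, 56.7 and 60 CPM in untreated LNCaP. UGT2B17 had 176, 180 and 178 CPM with genistein, against 138, 143 and 130 CPM in untreated LNCaP. In both genes every treated library lay above every untreated library, as 14.1% of all genes tested did in this comparison. The log2 fold change was 0.38 ± 0.10 (SE) for UGT2B15 (adjusted p = 0.28 by edgeR, 95% interval 0.17 to 0.59) and 0.38 ± 0.09 for UGT2B17 (adjusted p = 0.198, 0.20 to 0.57). Of the 5 members tested, edgeR called 0, while 0.112% of all genes were called in either direction. An unadjusted p under 0.05 was found for 2 members and for 1458 of all 16985 genes tested. DESeq2 called 1 member, UGT2B17 (log2 0.35, adjusted p = 2.72e-06), beside 128 of the 17556 genes to which it gave an adjusted p.

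Baicalein at 10 µM gave larger values for the same pair, and both passed the test. UGT2B15 had 86.8, 107 and 98.6 CPM with baicalein, against the 59.7, 56.7 and 60 CPM of untreated LNCaP, and rose 1.66-fold (log2 0.73 ± 0.10, edgeR adjusted p = 0.00522). UGT2B17 had 193, 206 and 198 CPM with baicalein and 138, 143 and 130 CPM in untreated LNCaP, and rose 1.45-fold (log2 0.54 ± 0.09, edgeR adjusted p = 0.0155). The libraries of the groups did not overlap for either gene, as for 8.95% of all genes in this direction. So 2 of 5 members tested were called higher, against 0.0883% of all genes. With the trend of fold change with GC content and length removed, the folds were log2 0.60 for UGT2B15 and 0.42 for UGT2B17 and neither was called (adjusted p = 0.0794 and 0.258). Neither was called when the fit held these 6 libraries alone (0.187 and 0.218) or when untreated replicate 2 was left out (0.0633 and 0.078). The UGT2B17 call was also lost with the replicate block (0.0815), with no filter on low counts (0.0814), and on leaving out any other single library except baicalein replicate 1 (0.0574 to 0.145).

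Genistein at 20 µM raised UGT2B15 and UGT2B17 as well. UGT2B15 had 91.6, 108 and 101 CPM with genistein, against the same untreated libraries at 59.7, 56.7 and 60 CPM, a 1.70-fold rise (log2 0.77 ± 0.10, edgeR adjusted p = 0.000248). UGT2B17 had 187, 192 and 198 CPM with genistein and 138, 143 and 130 CPM in untreated LNCaP, a 1.41-fold rise (log2 0.49 ± 0.09, edgeR adjusted p = 0.0022). Again every treated library was above every untreated one, as for 21.9% of all genes. The 2 of 5 members called higher compare with 8.31% of all genes called higher. With the GC and length trend removed, UGT2B15 stayed called (log2 0.58, adjusted p = 0.0146) and UGT2B17 did not (log2 0.30, adjusted p = 0.216).

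The 3 minor members tested did not change detectably with either drug at 10 µM or with genistein at 20 µM, and their libraries overlapped or touched the range of untreated LNCaP in each case. UGT2B10, for example, had 1.30, 3.33 and 2.96 CPM with genistein at 20 µM, against 1.82, 1.41 and 1.95 CPM in untreated LNCaP (95% interval of the log2 difference -0.19 to 1.32). UGT2B11 had 3.21, 5.91 and 4.68 CPM with genistein at 20 µM, against 4.98, 3.55 and 3.73 CPM in untreated LNCaP (-0.42 to 0.77). The highest value was that of UGT2B10 with baicalein at 10 µM, at 1.95, 3.64 and 2.75 CPM (log2 0.68, interval -0.08 to 1.45, edgeR adjusted p = 0.499). UGT2B11 with baicalein at 10 µM had an interval of -0.72 to 0.51, below the 0.73 of UGT2B15 in that treatment (interval 0.52 to 0.94). That of UGT2B10 with genistein at 20 µM includes the 0.77 of UGT2B15. Differences between members were not tested.

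With baicalein at 20 µM the direction was the opposite, and all 5 members tested fell. UGT2B17 had 29.9, 26.6 and 27 CPM with baicalein, against 138, 143 and 130 CPM in untreated LNCaP, a 4.91-fold fall (log2 -2.30 ± 0.09, edgeR adjusted p = 1.24e-09). UGT2B15 had 13.2, 13.0 and 12.3 CPM with baicalein, against 59.7, 56.7 and 60 CPM in untreated LNCaP, a 4.57-fold fall (log2 -2.19 ± 0.10, edgeR adjusted p = 4.93e-09). Both sets of treated libraries sat far below the untreated ones and close to each other, and 30.4% of all genes were lower without overlap. UGT2B10, UGT2B11 and UGT2B28 had at most 9, 6 and 2 counts in a baicalein 20 µM library and passed the filter on low counts through the other groups. Their calls are therefore not read against the share of all genes. UGT2B15 and UGT2B17 were called lower, beside 27.8% of all genes, so at this dose a fall in itself was frequent. The sizes were less so: 3.82% of the 16985 genes tested had a lower fold change than UGT2B17 and 4.25% a lower one than UGT2B15.

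The minor members fell by a similar or greater factor. UGT2B11 had 0.580, 0.410 and 0.105 CPM with baicalein at 20 µM, against 4.98, 3.55 and 3.73 CPM in untreated LNCaP, a 10.7-fold fall (log2 -3.43 ± 0.39, edgeR adjusted p = 6.97e-06). UGT2B10 had 0.193, 0.739 and 0.422 CPM with baicalein, against 1.82, 1.41 and 1.95 CPM in untreated LNCaP, a 3.68-fold fall (log2 -1.88 ± 0.45, edgeR adjusted p = 0.00286). None of these treated libraries reached an untreated one. UGT2B28 had 3 counts over the baicalein libraries and 42 over the untreated ones, 8.45-fold lower (95% counting interval 2.7 to 42.6, edgeR adjusted p = 0.0022). Without baicalein replicate 2 the fitted log2 values of UGT2B10 and UGT2B28 were -2.47 and -3.74, against -1.88 and -2.96 with it. UGT2B4, which did not pass the filter on low counts, had 1 against 27 counts, 16.3-fold lower (2.69 to 667), and was called lower both without the filter (adjusted p = 0.00412) and by DESeq2 (adjusted p = 0.00764). UGT2B7 had 0 counts with baicalein at 20 µM and 6 in untreated LNCaP, at least 1.21-fold lower against the floor, and was called by neither edgeR without the filter (adjusted p = 0.356) nor DESeq2 (0.56).

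**Figure D3:**
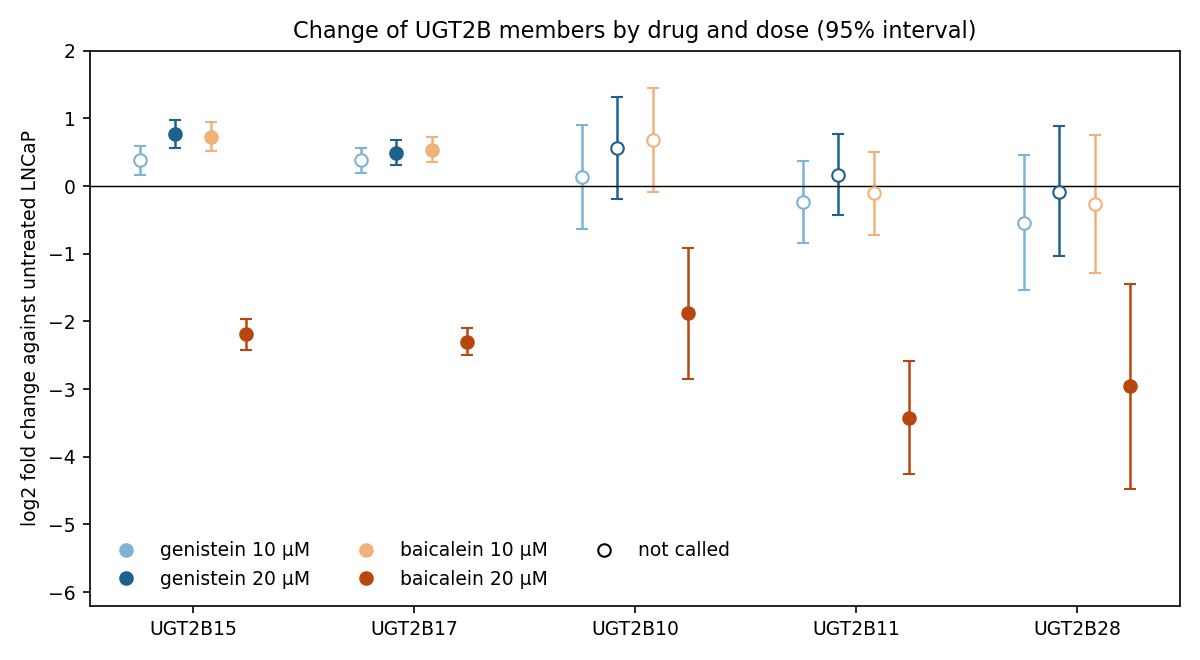
Log2 fold change against untreated LNCaP of the 5 members tested, with its 95% interval, at each dose of genistein and of baicalein; filled points were called at an adjusted p under 0.05 and open points were not. The values of UGT2B15 and UGT2B17 lie above 0 in 3 of the 4 treatments, and all 5 members lie between -3.43 and -1.88 with baicalein at 20 µM.

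Several other measures moved in the same baicalein 20 µM libraries. The share of mitochondrially encoded counts was 12.5 ± 1.97% there, against 5.09 ± 0.381% in untreated LNCaP. Without the mitochondrially encoded genes in the table, the fall of the summed pair was the same within the spread between libraries. The 6 luminal markers summed to 589 to 719 CPM with baicalein at 20 µM, against 3130 to 3480 CPM in untreated LNCaP, and 6 of 6 were called lower, beside 27.8% of all genes. The PC-3 markers summed to 24.9 to 26.1 CPM with baicalein at 20 µM, against 7.58 to 8.56 CPM in untreated LNCaP and 2910 to 3190 CPM in PC-3, and 2 of 2 tested were called higher, beside 29.4% of all genes. CD14, a monocyte marker, was the 1 leukocyte marker tested and was called higher, in a list that summed to at most 1.84 CPM. CD14 passed the filter on low counts through baicalein at 20 µM alone, so its call is not read against the share of all genes. Of the stromal and endothelial markers edgeR tested 1 each and called 0, with 0 at an unadjusted p under 0.05. DESeq2 called LUM and PECAM1, beside 10380 of the 23997 genes to which it gave an adjusted p. CDH5 was at 0 in both groups. The part of these shifts in the fall of the UGT2B genes was not tested.

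The summed level of UGT2B15 and UGT2B17 does not depend on how shared reads were split between them, and it gave the same picture. It averaged 195 ± 5.32 CPM in untreated LNCaP, 255 ± 3.55 CPM with genistein at 10 µM and 293 ± 12.0 CPM with genistein at 20 µM (SD, n = 3 each). With baicalein it averaged 296 ± 16.8 CPM at 10 µM and 40.7 ± 2.16 CPM at 20 µM. The pair was thus 1.5-fold higher with genistein at 20 µM and 4.8-fold lower with baicalein at 20 µM than in untreated LNCaP. UGT2B10, UGT2B11 and UGT2B28 summed to 0.903 ± 0.394 CPM with baicalein at 20 µM and 6.59 ± 1.12 CPM in untreated LNCaP, 7.30-fold lower. The share of UGT2B17 in the pair was 65.8 ± 1.53% with genistein at 20 µM and 68.4 ± 1.08% with baicalein at 20 µM, against 69.9 ± 1.63% in untreated LNCaP. It was 70.0 ± 0.662% with genistein at 10 µM and 67.1 ± 1.64% with baicalein at 10 µM. Thus the split between the copies moved by a few percentage points while their sum moved 4.8-fold, and no test was made of the share.

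**Figure D4:**
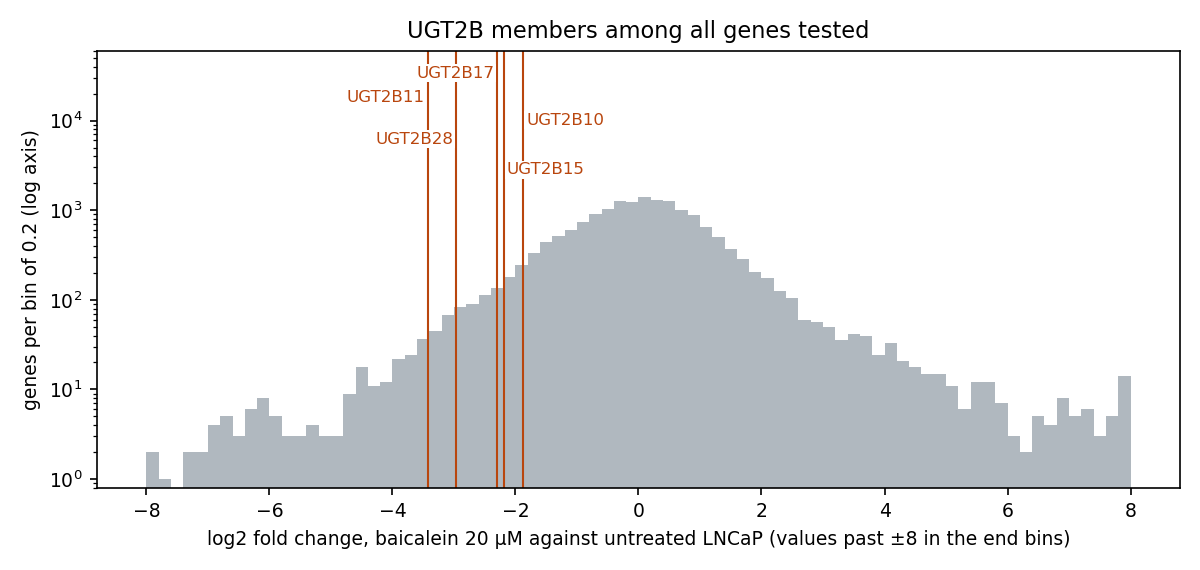
Distribution of the log2 fold change with baicalein at 20 µM against untreated LNCaP over the 16985 genes tested (bars, log axis for the number of genes), with the 5 UGT2B members tested as lines. UGT2B17 has 3.82% of genes below it and UGT2B15 4.25%. The lines of UGT2B10, UGT2B11 and UGT2B28 show their values only. These members passed the filter on low counts through groups other than baicalein at 20 µM, so their place is not read.

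Within each drug, the step from 10 to 20 µM separated the drugs. For genistein at 20 against 10 µM, UGT2B15 was the 1 of 5 members called, at 91.6, 108 and 101 CPM against 74.1, 76.0 and 79.2 CPM (log2 0.39 ± 0.10, edgeR adjusted p = 0.0188), while 5.59% of all genes were called higher. That call ended with the GC and length trend removed (log2 0.02, adjusted p = 0.943) and without any 1 of the genistein 10 µM libraries (0.0503 to 0.0674) or genistein 20 µM replicate 2 or 3 (0.0861 and 0.0662). UGT2B17 differed by log2 0.11 (95% interval -0.07 to 0.30, edgeR adjusted p = 0.408), and whether the pair differed from each other in this step was not tested. For baicalein at 20 against 10 µM, all 5 members were lower, by log2 -2.92 ± 0.11 for UGT2B15 and -2.84 ± 0.09 for UGT2B17. The 27.5% of all genes called lower is set beside UGT2B15 and UGT2B17 only. UGT2B10, UGT2B11 and UGT2B28 passed the filter on low counts through groups other than baicalein at 20 µM. The summed pair was 7.28-fold lower at 20 than at 10 µM of baicalein.

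Genistein and baicalein were compared with each other at the matched doses of 10 and 20 µM, all after 24 h, which makes 2 pairs of treatments with 5 members tested in each and p adjusted over all genes. At 10 µM edgeR called 0 of 5 members different between the isoflavone and the flavone, and DESeq2 called 0 as well. An unadjusted p under 0.05 was found for 1, UGT2B15, and for 1312 of all 16985 genes tested. By edgeR 0.00589% of all genes were called in either direction. UGT2B15 had 74.1, 76.0 and 79.2 CPM with genistein and 86.8, 107 and 98.6 CPM with baicalein, so that every genistein library was lower, as for 3.89% of genes (log2 -0.35, 95% interval -0.56 to -0.14, edgeR adjusted p = 0.543). UGT2B17 had 176, 180 and 178 CPM with genistein and 193, 206 and 198 CPM with baicalein (log2 -0.16, interval -0.34 to 0.03, edgeR adjusted p = 0.638). Every genistein library was also lower than every baicalein library for UGT2B17 and UGT2B10. A larger response to baicalein of up to log2 0.56 for UGT2B15 and 0.34 for UGT2B17 therefore lies within the intervals at this dose.

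At 20 µM the drugs differed strongly. UGT2B15 had 91.6, 108 and 101 CPM with genistein, against 13.2, 13.0 and 12.3 CPM with baicalein (7.79-fold higher, log2 2.96 ± 0.11, edgeR adjusted p = 1.25e-09). UGT2B17 had 187, 192 and 198 CPM with genistein, against 29.9, 26.6 and 27 CPM with baicalein (6.91-fold higher, log2 2.79 ± 0.09, edgeR adjusted p = 6.29e-10). No libraries overlapped, and 5 of 5 members were called higher with genistein. UGT2B15 and UGT2B17 compare with 28.2% of all genes without overlap in this direction and 25.4% called higher. The other members do not, since they passed the filter on low counts through groups other than baicalein at 20 µM. UGT2B11 was 12.1-fold higher, UGT2B28 7.38-fold and UGT2B10 5.44-fold. The difference between the 2 dose steps was itself tested as an interaction, the genistein step minus the baicalein step, and was positive for 5 of 5 members. For UGT2B15 and UGT2B17 this compares with 17.3% of all genes, and the limit set by the filter holds for the other members here too. The interaction was log2 3.31 ± 0.14 for UGT2B15 (edgeR adjusted p = 1.74e-08), 2.95 ± 0.12 for UGT2B17 (1.74e-08) and 3.73 ± 0.49 for UGT2B11 (0.000112). The comparisons with untreated LNCaP share the same 3 untreated libraries, whereas these between the drugs do not use them.

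Androgen signalling was read from 9 genes that androgens are known to induce. Genes of this list were called lower in every treatment, both where the UGT2B pair was higher and where it fell. Of the 8 tested, 1 was called lower with genistein at 10 µM (0.0765% of all genes), 5 with baicalein at 10 µM (0.312%), 7 with genistein at 20 µM (8.12%) and 8 with baicalein at 20 µM (27.8%). By edgeR 0 were called higher in any of the 4. Median log2 fold changes were -0.57, -0.76, -1.09 and -2.96 in that order of treatments, against 0.02 to 0.05 over all genes tested.

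ACP3, prostatic acid phosphatase, was an exception at 10 µM. It had 210, 201 and 218 CPM with genistein and 197, 205 and 179 CPM with baicalein at that dose, all above the 140, 159 and 150 CPM of untreated LNCaP (log2 0.49 and 0.37, edgeR adjusted p = 0.147 and 0.17), and DESeq2 called it higher with both. At 20 µM ACP3 was below untreated with both drugs, at 77.8, 79.2 and 70.1 CPM with genistein and 16.8, 16 and 19 CPM with baicalein.

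TMPRSS2, an androgen-induced serine protease, fell with baicalein at 10 µM to 219, 191 and 179 CPM, against 304, 332 and 335 CPM in untreated LNCaP (1.65-fold, edgeR adjusted p = 0.0162). FKBP5, a chaperone that androgens induce strongly, was the 1 gene edgeR called with genistein at 10 µM, at 73.8, 74.0 and 75.5 CPM, against 118, 115 and 116 CPM in untreated LNCaP (1.56-fold lower, edgeR adjusted p = 0.0291). There, 7 of the 8 tested genes had an unadjusted p below 0.05, as had 1458 of all 16985 genes tested. DESeq2 called 6 of the list, ACP3 among them as higher, beside 128 of the 17556 genes to which it gave an adjusted p. KLK3, which encodes PSA, fell 2.04-fold with genistein at 20 µM (edgeR adjusted p = 0.00468) and 8.40-fold with baicalein at 20 µM (1.44e-07). Set side by side, UGT2B15 was 1.70-fold higher and TMPRSS2 2.22-fold lower with genistein at 20 µM, while with baicalein at 20 µM they were 4.57-fold and 7.21-fold lower. In PC-3 8 of the 9 genes were lower than in LNCaP, and STEAP4, a metalloreductase, was the 1 called higher, beside 37.9% and 37.0% of all genes.

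**Figure D5:**
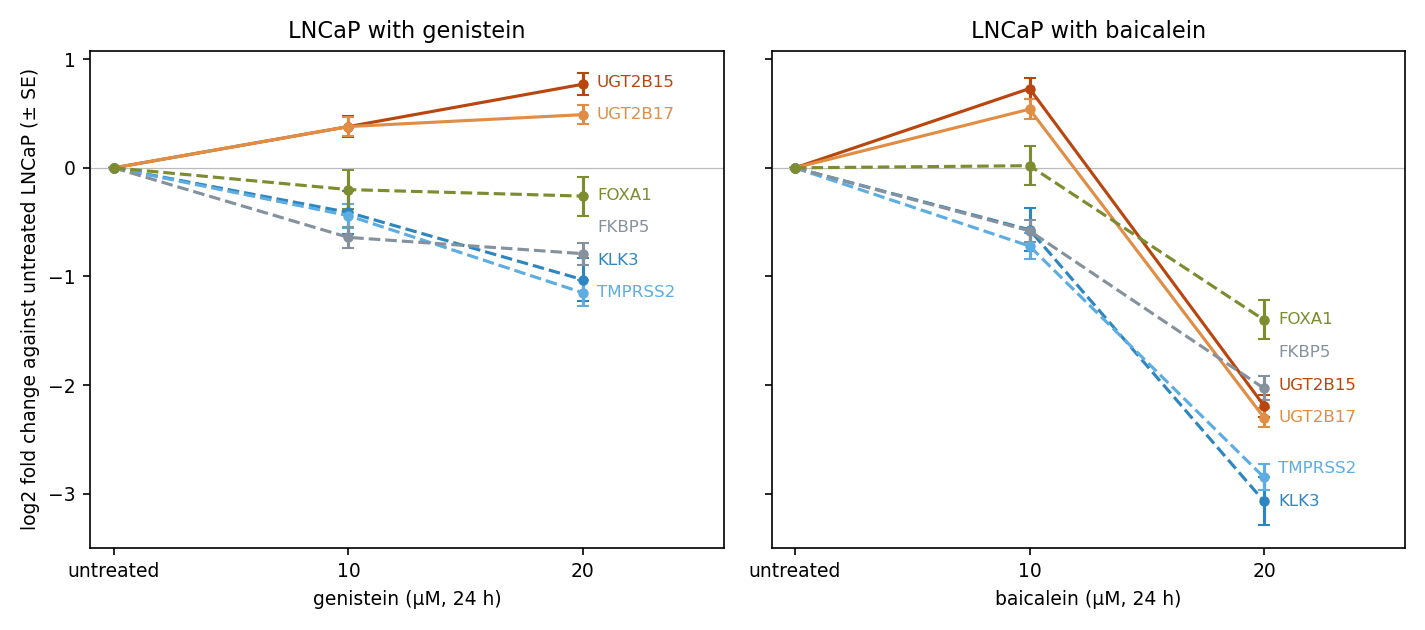
Log2 fold change against untreated LNCaP (± SE) of UGT2B15 and UGT2B17 (solid lines) and of KLK3, TMPRSS2, FKBP5 and FOXA1 (dashed lines) at 10 and 20 µM of genistein (left) and baicalein (right). The UGT2B pair lies above 0 and the androgen-induced genes drawn (KLK3, TMPRSS2 and FKBP5) below 0 with genistein at both doses and with baicalein at 10 µM, and all lie below 0 with baicalein at 20 µM.

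Known regulators of UGT2B transcription, 15 genes of which 9 were tested, had 0 calls at 10 µM of either drug by edgeR or DESeq2, and 0 at an unadjusted p under 0.05. FOXA1, a forkhead pioneer factor of prostate cells, had 274, 176 and 218 CPM with baicalein at 20 µM, against 672, 499 and 595 CPM in untreated LNCaP (2.64-fold lower, edgeR adjusted p = 2.88e-05). With genistein at 20 µM FOXA1 had 416, 496 and 565 CPM, a range that overlapped untreated (log2 -0.26 ± 0.18, edgeR adjusted p = 0.372). HNF4A, a liver factor that drives UGT genes there, was the 1 regulator edgeR called with genistein at 20 µM, at 1.91, 1.70 and 2.17 CPM, against 0.104, 0.183 and 0.115 CPM in untreated LNCaP (log2 3.77 ± 0.48, edgeR adjusted p = 0.000208). DESeq2 also called RXRA there, as lower (log2 -0.63 ± 0.24, edgeR adjusted p = 0.086). HNF4A had 1.64, 3.12 and 3.06 CPM with baicalein at 20 µM (log2 4.21 ± 0.47, edgeR adjusted p = 6.15e-06). HNF4A had higher values at 20 µM of both drugs, where the UGT2B pair rose with genistein and fell with baicalein. HNF4A passed the filter on low counts through these groups at 20 µM. Its calls are therefore not read against the 8.31% (genistein) and 29.4% (baicalein) of all genes called higher there, and its part was not tested. AHR, the aryl hydrocarbon receptor, rose 5.12-fold with baicalein at 20 µM, to 63.4, 24.8 and 35.3 CPM, against 8.83, 6.91 and 8.33 CPM in untreated LNCaP (edgeR adjusted p = 0.000638). In all, 5 regulators were called higher with baicalein at 20 µM, beside 29.4% of all genes, with the limit of the filter for HNF4A. Another 2 were called lower, beside 27.8% of all genes: FOXA1 and RXRA, the partner of several nuclear receptors. In PC-3, 3 were higher and 3 lower than in LNCaP, beside 37.0% and 37.9% of all genes.

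The genes that supply the sugar donor were not called where the UGT2B genes fell. UGDH, which makes UDP-glucuronate from UDP-glucose, had 111, 203 and 251 CPM with baicalein at 20 µM, against 198, 186 and 182 CPM in untreated LNCaP, a spread that covers the untreated values (log2 -0.00 ± 0.24, edgeR adjusted p = 0.995). UGP2, which makes UDP-glucose, averaged 69.8 ± 12.1 CPM with baicalein at 20 µM and 64.3 ± 7.5 CPM in untreated LNCaP (log2 0.12 ± 0.19, edgeR adjusted p = 0.628). GUSB, the lysosomal enzyme that removes glucuronic acid, averaged 36.7 ± 11.2 and 44.6 ± 2.83 CPM in the same groups (log2 -0.28 ± 0.18, edgeR adjusted p = 0.187). Of the 4 genes of this list that were tested, UXS1, which turns UDP-glucuronate into UDP-xylose, was the 1 called by edgeR with any treatment, lower with baicalein at 20 µM at 8.34 ± 1.61 against 13.3 ± 0.89 CPM (1.58-fold, edgeR adjusted p = 0.00816). UXS1 averaged 23.4 ± 1.65 CPM with genistein at 10 µM, where DESeq2 called it higher and edgeR did not (log2 0.82 ± 0.18, adjusted p = 0.19).

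SLC35D1, a transporter that carries UDP-glucuronate into the endoplasmic reticulum, separated the cell lines in the other direction from the UGT2B genes. It had 21.5, 21.1 and 21.3 CPM in PC-3, against 0 counts in all 3 untreated LNCaP libraries, at least 387-fold higher in PC-3 against a floor of 3 counts over the LNCaP group (edgeR adjusted p = 5.02e-06). SLC35D1 passed the filter on low counts through PC-3 alone, so a higher level in PC-3 was fixed by the filter. With the drugs its level in LNCaP was at most 0.193 CPM in any library. The 15 other UGT genes listed were at low level. Of the 4 tested in LNCaP (UGT1A1, UGT1A3, UGT1A6 and UGT8), edgeR called 0 against untreated in any treatment. At an unadjusted p under 0.05 there was 1 each with genistein at 10 µM, genistein at 20 µM and baicalein at 20 µM. Of all 16985 genes tested, 1458, 5170 and 10462 had such a p, in that order. DESeq2 called 1, UGT1A3 with baicalein at 20 µM, beside 10380 of the 23997 genes to which it gave an adjusted p. UGT8, which makes galactosylceramide, was 23.8-fold higher in PC-3, at 26.2, 19.5 and 12.7 CPM against 0.752, 0.836 and 0.839 CPM in LNCaP (edgeR adjusted p = 1.84e-05).

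Genes for the steps beside and after glucuronidation fell with baicalein at 20 µM. Of the exporters of glucuronide and steroid conjugates, 3 of 3 tested were called lower, among them ABCC4, at 124, 79.1 and 100 CPM with baicalein against 435, 378 and 377 CPM in untreated LNCaP (3.93-fold, edgeR adjusted p = 1.03e-06). ABCC1 and ABCC4 were also called lower with genistein at 20 µM, by 2.09-fold and 1.58-fold (edgeR adjusted p = 0.000107 and 0.0195), beside 8.12% of all genes. Of the sulfate-conjugating genes, 4 of 4 tested were lower with baicalein at 20 µM. They were SULT2B1, a hydroxysteroid sulfotransferase (2.60-fold), STS, the steroid sulfatase (2.76-fold), SULT1A1, a phenol sulfotransferase (1.90-fold), and PAPSS1, which makes the sulfate donor (1.81-fold). The largest of their edgeR adjusted p was 0.00423, for SULT1A1. The 27.8% of all genes called lower with baicalein at 20 µM is the level against which the 3 of 3 and the 4 of 4 are read.

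Over the 15 LNCaP libraries, the genes whose log2 CPM followed each member most closely were found among 10529 protein-coding genes at a mean of at least 5 CPM. For UGT2B17 they were FOLH1, IARS2, BRINP3, PLEKHB2 and THNSL1, with Pearson r of 0.995 for FOLH1 and 0.988 for THNSL1. For UGT2B15 they were KIFAP3, PAPSS1, FOLH1, CAT and IARS2, with r of 0.982 to 0.984. For UGT2B11 they were LYPLA2, GOLM1, SRSF8, TUBB4A and DNAH8 (0.969 to 0.975), for UGT2B10 PROS1, AQR, NDUFB5, CNTN5 and PAPSS1 (0.911 to 0.959), and for UGT2B28 PTPRJ, MAZ, TBC1D5, MAGEF1 and PHLDB1 (0.877 to 0.893). These r describe 15 libraries in 5 groups that share their scaling, and the 3 baicalein 20 µM libraries lie apart from the rest, so a high r was common: 708 genes had an r over 0.9 with UGT2B17 and 464 with UGT2B15. FOLH1, which encodes PSMA, averaged 331 ± 16.7 CPM with baicalein at 20 µM and 879 ± 25.6 CPM in untreated LNCaP, a 2.66-fold fall beside the 4.91-fold fall of UGT2B17. With genistein at 20 µM FOLH1 averaged 953 ± 33.0 CPM and was not called (log2 0.12 ± 0.08, edgeR adjusted p = 0.366).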

How the data were processed

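The deposited table gives whole-number counts per gene and library, which were used as deposited. Per the submitters' processing notes, the authors used GRCh38 with STAR 2.7.6a, fastp, DESeq2 1.20.0 and featureCounts 1.6.4, in roles and an order not stated. Annotation release, strand setting and multimapping are not given in the sources used here. Per the labels' protocols, RNA with an integrity number of at least 7 went into NEBNext Ultra poly(A) libraries, a kit that does not mark strand. The 18 FPKM columns and 13 comparisons by the authors were not used.

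CPM (counts scaled to TMM effective library sizes) and all tests come from edgeR 4.0.16 in R 4.3.3 (quasi-likelihood F test, robust, default filter, Benjamini-Hochberg over all genes, threshold 0.05). The 15 LNCaP libraries entered 1 fit with 16985 genes tested and the 6 untreated libraries another with 17259, which is why untreated CPM differ slightly. The script was tested on simulated data. Alternatives were DESeq2 1.42.0, RLE factors, no filter, only the compared groups, no mitochondrially encoded genes, a GC and length offset (95% of genes covered), a replicate block and leaving out each library. Likeness used log2(CPM + 0.5). Named genes were all members, up to 4 called genes per list and comparison with the smallest adjusted p, 8 genes of interest (1 is not reported here), and the 5 genes most like each called member. Members and lists were chosen with earlier results of these data known. Sequences come from GENCODE 29 and RefSeq.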

Additional observations from a re-analysis of the deposited data

Results flagged for a closer look

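The step from 10 to 20 µM differed between the drugs for 5 members by a test of the difference itself, the drug by dose interaction in edgeR's quasi-likelihood fit. On the log2 scale the genistein step exceeded the baicalein step by 3.31 for UGT2B15, 2.95 for UGT2B17, 3.73 for UGT2B11, 3.00 for UGT2B10 and 3.16 for UGT2B28. All 5 were called lower at 20 than at 10 µM of baicalein, and UGT2B15 was the 1 called between these doses of genistein, where it was higher. Adjusted p ran from 1.74e-08 to 0.0143. Over all genes, 17.3% were called higher in the interaction, 27.5% lower in the baicalein step and 5.59% higher in the genistein step. These shares are set beside UGT2B15 and UGT2B17 only. UGT2B10, UGT2B11 and UGT2B28 passed the filter on low counts through groups other than baicalein at 20 µM.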

How the results depend on the processing

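All 358 alternative fits of the 24 member results that involve baicalein at 20 µM or PC-3 kept their direction and call, as did 661 of 706 alternatives over all 49 member results. Alternatives that gave a member no adjusted p are not in these numbers. With baicalein at 20 µM against untreated, UGT2B28 had 13 alternatives and UGT2B15 14. The limit set by the filter on low counts holds for UGT2B10, UGT2B11 and UGT2B28 with baicalein at 20 µM and for all members in PC-3. Sizes of low members moved more: without baicalein 20 µM replicate 2 the interaction was 3.94 for UGT2B28 and 3.60 for UGT2B10, and without PC-3 replicate 2, which holds its 1 count, UGT2B11 was -8.85 against -6.62. In PC-3, UGT2B17 ran from -9.82 without replicate 1 to -8.38 without replicate 2, UGT2B15 was -8.89 without replicate 2, and UGT2B10 was -6.62 by DESeq2. With 3 libraries a group and members at a few CPM, small changes of the minor members were not detectable. UGT2B17 with genistein at 10 µM was called by DESeq2 alone (0.35). UGT2B17 with baicalein at 10 µM was not called without the filter on low counts (0.46), with only the compared groups fitted (0.53), with the replicate block (0.54), or with the GC and length trend removed, without or with the block (0.42 in both). UGT2B15 with baicalein at 10 µM was not called with only the compared groups (0.72) or with the trend removed, without or with the block (0.60 in both). UGT2B17 with genistein at 20 µM was not called with the trend removed (0.30, or 0.31 with the block), nor UGT2B15 between genistein at 20 and 10 µM (0.02 in both).

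Removing the GC and length trend also turned uncalled values near 0. UGT2B11 came to 0.01 with genistein at 10 µM, -0.03 with genistein at 20 µM, -0.03 (-0.05 with the block) between genistein at 20 and 10 µM, and 0.21 (0.24 with the block) between the drugs at 10 µM. UGT2B17 came to -0.27 between genistein at 20 and 10 µM and 0.15 (0.16 with the block) between the drugs at 10 µM, and UGT2B10 to -0.01 between genistein at 20 and 10 µM with the block. The causes were not tested.

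Leaving out 1 library gave 0.66 to 0.81 for UGT2B15 and 0.47 to 0.56 for UGT2B17 with baicalein at 10 µM, and 0.34 to 0.46 for UGT2B15 between genistein at 20 and 10 µM. Uncalled values that crossed 0 ranged over -0.30 to 0.07 (UGT2B11, baicalein at 10 µM), -0.27 to 0.13 (UGT2B28, genistein at 20 µM), -0.05 to 0.18 (UGT2B10, genistein at 10 µM) and -0.05 to 0.34 (UGT2B11, genistein at 20 µM). Between the drugs at 10 µM they ranged over -0.62 to 0.12 (UGT2B28) and -0.27 to 0.07 (UGT2B11).

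Same-numbered libraries deviated together in 8 of 33 pairs (r over 0.1, range -0.513 to 0.473), so the numbers did not pair the samples alike in all groups. These r cannot tell whether some of the groups share a pairing or a batch. Apart from UGT2B17 with baicalein at 10 µM, the replicate block changed no member's call. The replicate block moved the calls over all genes to 29, against 68, with baicalein at 10 µM, and to 11, against 19, with genistein at 10 µM. At 10 µM the number of calls was the least stable, at 400 by DESeq2, 170 with the trend removed and 9 with only the compared groups for baicalein, and 128 by DESeq2 and 60 with the trend removed for genistein. Without mitochondrially encoded genes the calls with genistein at 20 µM were 1076 higher and 1685 lower, against 1412 and 1379. For PC-3 the median of all genes was -0.12 by DESeq2 and -0.10 with the trend removed, against -0.02, small beside the members' values. Without mitochondrially encoded genes the summed pair stood at log2 0.52 with genistein at 20 µM.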
